A study of Arabidopsis thaliana with 10 samples.

Results

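NRT2.5 and ASPGB1 are 2 nitrogen genes of Arabidopsis thaliana whose transcripts stood well below the control level early in a time course of dexamethasone (DEX) in whole shoots. They are 2 of 13350 genes named on the ATH1 arrays used here. NRT2.5 (AT1G12940) and ASPGB1 (AT3G16150) were looked up by name in the array's gene table, and each has 1 probe set. The pair was picked because its signals were already known to be low after DEX, NRT2.5 most at 3 hr and ASPGB1 at 6 and 12 hr. Its levels against the control are therefore given as a description, with no test.

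All plants were shr-2 mutants that carried pSHR:SHR-GR, the SHORT-ROOT (SHR) protein joined to a glucocorticoid receptor and driven by the promoter of SHR itself. SHR is a GRAS-family transcription factor, and DEX lets such a fusion enter the nucleus. Shoots were harvested untreated (0 hr, the control) or 3, 6, 12 and 24 hr into 10 µM DEX, and each of these 5 groups has 2 biological replicates, 10 arrays in all. Seedlings grew on 1/2 MS medium at 22 °C in a day of 16 h light and 8 h dark, and DEX was given at 10 days after germination (DAG), or at 9 DAG for the 24 hr group. Mock-treated shoots and shr-2 plants without the transgene are not among the 10 arrays, so an effect of the fusion, of DEX itself, of handling and of the hour of harvest cannot be told apart. The SHR gene was not analysed here.

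Plants take up nitrate through 2 transporter families, the high-affinity NRT2 carriers and the large NRT1/PTR family (NPF), whose members also carry peptides, hormones and glucosinolates. NRT2.5 is a high-affinity nitrate carrier known for its strong transcript in nitrogen-starved plants, in the root and around the minor veins of leaves. Asparagine is a main form in which plants move and store nitrogen, and asparaginases such as ASPGB1 split it into aspartate and ammonium for use in growing tissue.

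Values are MAS5 signals, a brightness in arbitrary units on a linear scale. The median signal per array ran from 181.5 to 191.5, and the 2 replicates of a group correlated at 0.986 to 0.991 across probe sets. Of 12 shoot markers written down, 2 were measured and both were bright: RCA, the activase of Rubisco, at 18805 to 25490, and LHCB4.3, a light-harvesting protein, at 1861 to 3809. Of 12 root markers, 3 were measured. PYK10, a beta-glucosidase best known from roots, stood at 8262 to 10883, while the root hair expansins EXPA7 and EXPA18 stood at 1.83 to 21.5 and 10.0 to 85.2. No measured marker was at 0.

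NRT2.5 was at its lowest at 3 hr of DEX and stood higher at each later time. Its signal was 178.7 and 207.1 at 0 hr, 41.2 and 56.9 at 3 hr, 74.8 and 74.0 at 6 hr, 108.2 and 135.4 at 12 hr, and 172.6 and 161.4 at 24 hr. No DEX time overlapped with the control, and no time overlapped with the time next to it. From high to low, the levels thus ran 0, 24, 12, 6 and 3 hr. This order without overlap was found in 22 of 22746 probe sets (0.0967%). Nothing is read from that share, since the gene was chosen on these arrays.

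Group means for NRT2.5 were 49.0 ± 11.1 at 3 hr, 74.4 ± 0.544 at 6 hr, 122 ± 19.2 after 12 hr and 167 ± 7.88 at 24 hr, against 193 ± 20.1 in the control (SD, n = 2 each). The transcript thus stood at 25.4% of the control at 3 hr, 38.5% at 6 hr, 63.1% after 12 hr and 86.5% at 24 hr. On the log2(signal + 16) scale used for all log2 values, the fitted difference from 0 hr was -1.69 at 3 hr, -1.21 at 6 hr, -0.60 after 12 hr and -0.19 at 24 hr, each with an SE of 0.19. The 24 hr difference is thus about the size of its error, and it was -0.09 without control replicate 2 and -0.29 without control replicate 1. Sorted from the most negative difference, NRT2.5 was number 13 of 22746 probe sets at 3 hr, 57 at 6 hr, 718 after 12 hr and 5409 at 24 hr.

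The return of NRT2.5 toward the control was spread over all 3 later steps. The fitted log2 step was 0.49 between 3 and 6 hr, 0.60 between 6 and 12 hr and 0.42 between 12 and 24 hr. With a signal of 41.2, 1 of the 3 hr arrays lay below 44.8, the 30th percentile of all mean signals, and the size of a log2 difference at such low signals depends on the offset: at 3 hr it was -1.97 with an offset of 1 and -1.19 with an offset of 64.

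ASPGB1 was low at both 3 and 6 hr, and its steps back toward the control lay after 6 hr. Its signal was 520.3 and 473.4 at 0 hr, 180.2 and 214.1 at 3 hr, 153.1 and 207.8 at 6 hr, 234.0 and 274.7 at 12 hr, and 427.6 and 393.0 at 24 hr. All 8 DEX arrays were below both control arrays, and the 3 and 6 hr arrays overlapped. Both 12 hr arrays lay above all 3 and 6 hr arrays and below both 24 hr arrays. Levels in the order 0, 24 and 12 hr, then 3 and 6 hr in any order, were found in 66 of 22746 probe sets (0.290%). Nothing is read from that share either.

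Group means for ASPGB1 were 197 ± 23.9 at 3 hr, 180 ± 38.7 at 6 hr, 254 ± 28.8 after 12 hr and 410 ± 24.5 at 24 hr, against 497 ± 33.1 in the control (SD, n = 2 each). These are 39.7%, 36.3%, 51.2% and 82.6% of the control. The fitted log2 difference from 0 hr was -1.27 at 3 hr, -1.40 at 6 hr, -0.93 after 12 hr and -0.27 at 24 hr, each with an SE of 0.15. By the size of this difference ASPGB1 was number 55 of 22746 probe sets at 3 hr, 20 at 6 hr, 131 after 12 hr and 3604 at 24 hr.

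Between 3 and 6 hr the fitted step of ASPGB1 was -0.13, smaller than its SE of 0.15. It was 0.47 between 6 and 12 hr and 0.66 between 12 and 24 hr, each with the same SE. The later interval is also the longer one, and which of the 2 steps was wider was not tested. In bulk shoot RNA, fewer cells that hold a transcript and less transcript per cell cannot be told apart, here or in the values that follow.

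**Figure D1:**
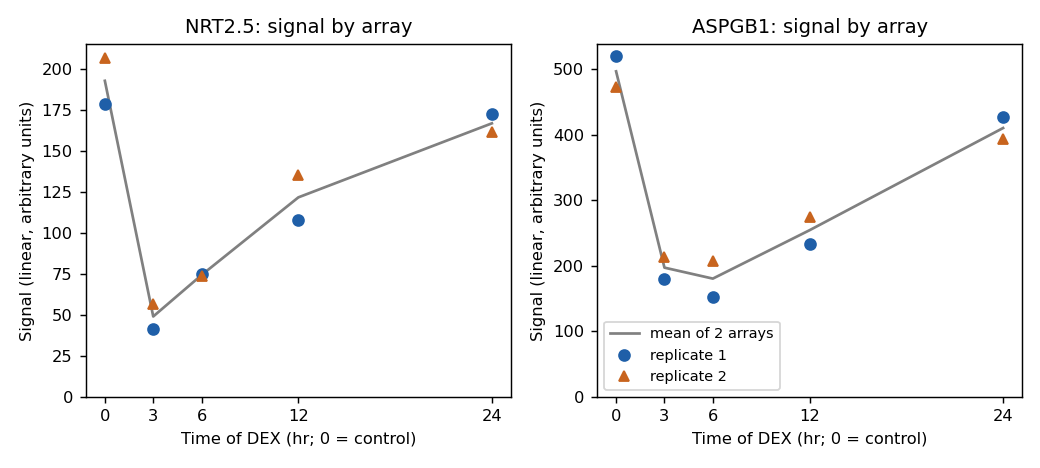
MAS5 signal (vertical axis, arbitrary units from 0) of NRT2.5 (left) and ASPGB1 (right) against hours of DEX, with 0 hr as the control. Circles are replicate 1, triangles replicate 2, and the line joins the means of the 2 arrays. NRT2.5 has its low point at 3 hr (mean 49.0) and ASPGB1 a floor over 3 and 6 hr (means 197 and 180), and both lie below both control arrays at every DEX time.

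NRT2.5 had its lowest mean at 3 hr, and the low point of ASPGB1 could not be placed between 3 and 6 hr, since those arrays overlapped. At 12 hr NRT2.5 stood at 63.1% of its control and ASPGB1 at 51.2%, while at 24 hr the shares were 86.5% and 82.6%. These shares were read from the same arrays and were not tested against each other.

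Both genes had both DEX arrays below both control arrays at all 4 times. That pattern is common on these arrays: of all probe sets tested it held for 27.3% at 3 hr, 31.8% at 6 hr, 26.4% after 12 hr and 24.0% at 24 hr, and nothing is read from it, since the pair was chosen on this contrast.

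Across the 10 arrays the log2 signals of NRT2.5 and ASPGB1 correlated at r = 0.899. This describes 2 genes chosen for low levels at the same times on the same arrays. Within groups, the replicate with the higher NRT2.5 signal also had the higher ASPGB1 signal in 3 of 5 groups. With 5 groups of 2 arrays this cannot show whether the 2 genes were linked within groups. Among the 8767 single-gene probe sets brighter than the 30th percentile of mean signals, ASPGB1 was number 112 in likeness to NRT2.5, and NRT2.5 was number 61 in likeness to ASPGB1.

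**Figure D2:**
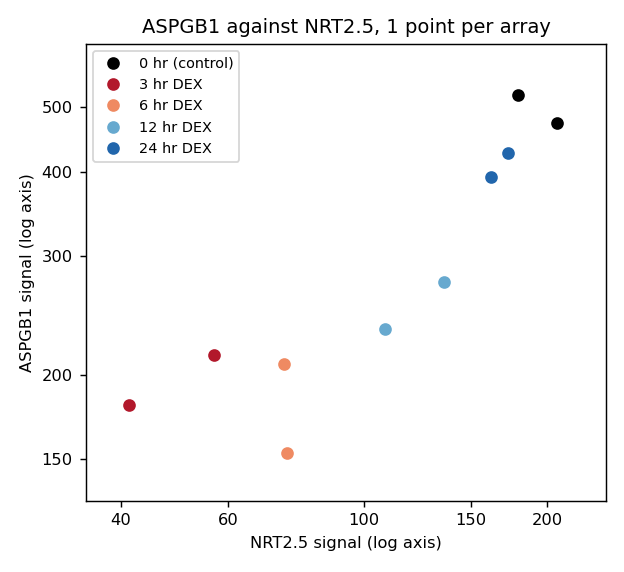
ASPGB1 signal (vertical, log axis) against NRT2.5 signal (horizontal, log axis), 1 point per array, coloured by time. The 3 and 6 hr arrays sit at the low end of both axes, the 12 hr arrays between, and the 24 hr arrays next to the controls. The 6 hr arrays have nearly equal NRT2.5 signals (74.8 and 74.0) but unlike ASPGB1 signals (153.1 and 207.8).

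The other nitrogen genes were taken from lists of transport, assimilation and signalling loci. The lists name 144 loci. For 29 of them the array's gene table gives a probe set to that locus alone, and 27 remain besides the pair. These are 16 of 31 in the NPF and nitrate channel list and 6 of 27 in the nitrate signalling list. The rest are 2 of 20 in the asparagine and aspartate list and 3 of 10 in the urea and arginine list. Here, as for the markers and chromosomal neighbours, any other locus counts as not measured. The gene table names no gene for 8730 of the 22746 tested probe sets, so such a locus may still be on the array. NRT2.5 was the only one measured of the 9 loci in the NRT2 list, which also holds the partner proteins of these carriers. The loci listed for nitrate assimilation, ammonium transport, glutamine and glutamate synthesis and amino acid transport were not analysed here. Of the 27, 7 had a mean signal under 44.8. Here a gene is said to rise or fall only where limma's test, with Benjamini-Hochberg adjustment over all 22746 probe sets, gave an adjusted p under 0.05.

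The other nitrogen genes moved in both directions. At 3 hr 5 of the 27 rose and 3 fell, against 3.91% of all probe sets higher and 4.31% lower. At 6 hr 7 rose and 1 fell, against 5.17% and 4.19%. At 12 hr 3 rose and 0 fell, against 1.27% and 0.330%, and at 24 hr 1 rose and 0 fell, against 0.717% and 0.242%. The median log2 difference of the 27 was 0.13 at 3 hr, -0.08 at 6 hr, 0.09 after 12 hr and 0.06 at 24 hr, while over all probe sets it was -0.03, -0.05, -0.03 and -0.03. When the 4 DEX times were tested together by a moderated F, limma called 13 of the 27 (48.1%), against 13.2% of all probe sets.

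These counts changed when single arrays were left out and with the variance model. Some calls were lost with the log2 difference unchanged, such as that of NPF6.2 at 3 hr (0.30) without a 12 hr array. At 3 hr the 8 calls became 3 without control replicate 1, 5 without control replicate 2 and 5 without 3 hr replicate 2, and at 6 hr the 8 calls became 5 without 6 hr replicate 1. The 3 calls at 12 hr became 1 when either control array or either 12 hr array was left out, and the single call at 24 hr was lost without control replicate 1, control replicate 2 or 24 hr replicate 2. Without the variance trend 8 of the 20 calls against 0 hr were lost, those of NPF6.2, GTR2, AT2G47880 and PYRB at 3 hr, AT1G22550 at 6 hr, NPF3.1 and AT1G68670 after 12 hr and AT1G25550 at 24 hr. Over all probe sets at 3 hr, 890 were higher and 980 lower, but 1181 were higher and 690 lower when the arrays were brought to a common median, and the 27 then had 7 rises and 3 falls.

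**Figure D3:**
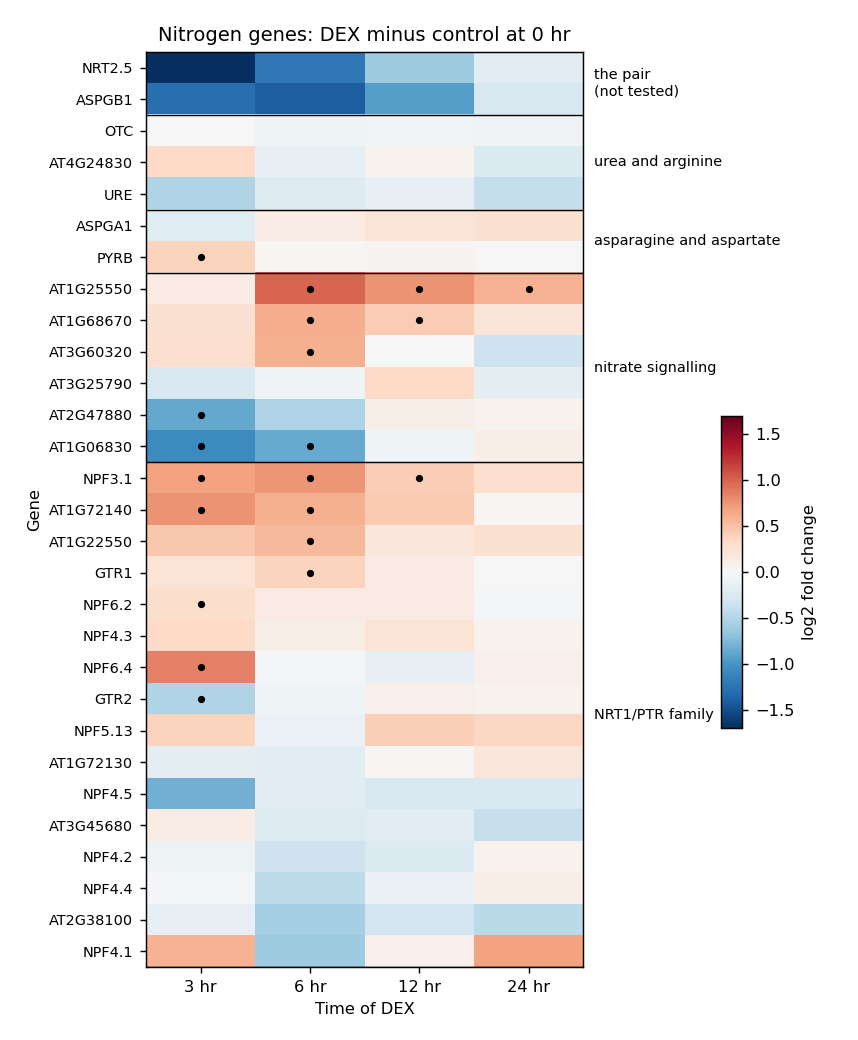
Log2 difference from the control (colour, red higher and blue lower after DEX) of the pair and the 27 other nitrogen genes (rows, by list) at 3, 6, 12 and 24 hr of DEX (columns). A dot marks an adjusted p under 0.05. The pair, chosen for being low and not tested, is blue at all 4 times, with NRT2.5 at -1.69 at 3 hr. URE, NPF4.5 and AT2G38100 are also blue at all 4 times, in paler shades than the pair at 3, 6 and 12 hr. At 24 hr AT2G38100 (-0.46) and URE (-0.40) are darker than ASPGB1 (-0.27) and NRT2.5 (-0.19), and NPF4.5 (-0.26) lies between the pair. NPF3.1, AT1G25550, AT1G68670, AT1G72140, AT1G22550, GTR1 and NPF4.3 are red at all 4 times, some of them very pale at 24 hr.

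In the NPF and channel list 4 of 16 genes rose and 1 fell at 3 hr, against 3.91% and 4.31% of all probe sets. At 6 hr 4 rose and 0 fell, against 5.17% and 4.19%, and at 12 hr 1 rose and 0 fell, against 1.27% and 0.330%. At 24 hr none passed limma's test, with 1 at an unadjusted p under 0.05. The 6 list members with a mean under 44.8, such as NPF4.1 at 4.8 to 55.5, were called at no time.

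NPF3.1, a plasma membrane carrier described for nitrate, nitrite and gibberellin, ran nearly opposite to ASPGB1. It had signals of 1157.9 and 1154.9 at 3 hr and 1207.3 and 1225.5 at 6 hr, against 732.1 and 699.9 in the control. It was 1.62-fold higher at 3 hr (log2 0.68 ± 0.07 SE, adjusted p = 0.000147) and 1.70-fold higher at 6 hr (log2 0.75 ± 0.07 SE, adjusted p = 4.64e-05). At 12 hr it was 984.5 and 931.6, a rise of 0.41 on the log2 scale that lost its call when either control array or either 12 hr array was left out. At 24 hr both arrays, at 876.8 and 874.8, still lay above both control arrays, without passing the test. Its correlation with ASPGB1 over the 10 arrays was -0.944, number 8764 of 8767 in likeness.

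NPF6.4, also known as the nitrate transporter NRT1.3, had a brief peak. Its signals were 1576.3 and 1632.5 at 3 hr, against 863.7 and 894.9 in the control, a 1.82-fold rise (log2 0.86 ± 0.12 SE, adjusted p = 0.00139). At 6 hr it was back at 847.9 and 864.2. NPF6.2, a nitrate carrier of the leaf petiole also called NRT1.4, was 1638.2 and 1476.6 at 3 hr, against 1255.9 and 1268.3 in the control. That rise of 0.30 on the log2 scale (adjusted p = 0.045) was lost without any 1 of 6 arrays, namely either control, 3 hr or 12 hr array.

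GTR1 and GTR2, the paired glucosinolate transporters of the same family, were called at different times and in opposite directions. GTR2 fell at 3 hr to 842.0 and 870.7, against 1274.0 and 1177.8 in the control (log2 -0.51 ± 0.09 SE, adjusted p = 0.00515), and was at 1170.3 and 1150.3 at 6 hr. The call was lost without control replicate 1. GTR1 rose at 6 hr to 1436.0 and 1371.8, against 1102.8 and 1045.6 in the control (log2 0.38 ± 0.07 SE, adjusted p = 0.00513), a call lost without 6 hr replicate 1. GTR1 and NPF6.2 are named because they complete the counts, after their values were seen.

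The remaining calls of this list were 2 loci that the tables used here do not name. AT1G72140 was 171.9 and 179.3 at 3 hr and 156.9 and 156.1 at 6 hr, against 96.5 and 98.2 in the control (log2 0.76 and 0.61). AT1G22550 was 315.4 and 360.1 at 6 hr, against 217.6 and 231.7 in the control (log2 0.55). Both lost each call without either control array. AT1G72140 also lost it at 3 hr without 3 hr replicate 2, and at 6 hr without either 6 hr or either 12 hr array, and AT1G22550 lost it without either 6 hr array.

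The 6 measured loci of the nitrate signalling list split in 2 directions, and the tables used here name none of them. At 3 hr 0 rose and 2 fell, against 3.91% and 4.31% of all probe sets, and at 6 hr 3 rose and 1 fell, against 5.17% and 4.19%. At 12 hr 2 rose, against 1.27%, and at 24 hr 1 rose, against 0.717%. AT3G25790, at 19.9 to 59.1 over all arrays, was dim and was the only one of the 6 not called by the F test.

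AT1G06830 fell at 3 and 6 hr, the times at which NRT2.5 was lowest. Its signals were 825.3 and 783.7 at 3 hr and 934.2 and 950.1 at 6 hr, against 1693.4 and 1725.4 in the control. It was 2.12-fold lower at 3 hr (log2 -1.07 ± 0.08 SE, adjusted p = 1.88e-05) and 1.81-fold lower at 6 hr (log2 -0.85 ± 0.08 SE, adjusted p = 7.48e-05). At 12 hr it stood at 1679.0 and 1560.0 and at 24 hr at 1720.4 and 1994.4, so the 24 hr arrays overlapped with the control. Over the 10 arrays it correlated with NRT2.5 at 0.928, number 45 of 8767.

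AT2G47880 was 577.9 and 343.2 at 3 hr, against 794.6 and 857.2 in the control. The 2 arrays at 3 hr differed widely, and the fall (log2 -0.87 ± 0.18 SE, adjusted p = 0.0149) was lost without control replicate 1 or control replicate 2.

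AT1G25550 rose later and stayed up. Its signals were 718.8 and 645.5 at 3 hr, 1210.1 and 1268.6 at 6 hr, 1116.4 and 1005.0 after 12 hr and 883.5 and 994.2 at 24 hr, against 636.6 and 603.5 in the control. It was the only one of the 27 called at 24 hr. The log2 rise was 0.98 ± 0.09 SE at 6 hr (adjusted p = 5.19e-05), 0.76 after 12 hr (adjusted p = 0.00153) and 0.58 at 24 hr (adjusted p = 0.0131), the last lost without control replicate 1, control replicate 2 or 24 hr replicate 2.

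AT1G68670 and AT3G60320 also rose at 6 hr. AT1G68670 was 1318.1 and 1106.7, against 785.1 and 783.7 in the control (log2 0.61 ± 0.09 SE, adjusted p = 0.00159). Its call at 12 hr (log2 0.43, adjusted p = 0.0468) was lost without either control array, either 3 hr array, either 12 hr array or either 24 hr array, and with quantile or common-median scaling, an offset of 64 or the replicate number as a block (adjusted p = 0.0703). AT3G60320 was 1235.3 and 1286.7 at 6 hr, against 755.0 and 905.6 in the control (log2 0.60 ± 0.10 SE, adjusted p = 0.00295), and 614.2 and 680.9 at 24 hr, below both control arrays but not called.

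ASPGA1, the other asparaginase gene of Arabidopsis, was called at none of the 4 times against the control. Its signals were 655.3 and 739.9 at 3 hr, 832.3 and 927.1 at 6 hr, 873.5 and 1002.6 after 12 hr and 1026.6 and 899.5 at 24 hr, against 814.9 and 787.8 in the control. The 3 hr arrays lay below and the later arrays above both control arrays. The log2 difference was -0.20 at 3 hr (adjusted p = 0.292), 0.13 at 6 hr (adjusted p = 0.499), 0.22 after 12 hr (adjusted p = 0.391) and 0.26 at 24 hr (adjusted p = 0.289), each with an SE of 0.10. Over the 4 times together the F test called it (adjusted p = 0.0466). At 6 hr, ASPGB1 was at -1.40 ± 0.15 SE, a difference between the 2 genes that was not tested because ASPGB1 was chosen for its value.

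PYRB, the aspartate carbamoyltransferase that draws aspartate into pyrimidine synthesis, was 1047.1 and 1022.6 at 3 hr, against 764.9 and 816.0 in the control. This rise (log2 0.38 ± 0.08 SE, adjusted p = 0.0165) was gone at 6 hr, at 793.6 and 805.9, and was lost without control replicate 1, 3 hr replicate 1 or 3 hr replicate 2.

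None of the 3 measured genes of the urea and arginine list passed limma's test against the control at a single time. By limma's unadjusted p, 2 were under 0.05 at 3 hr and 2 at 24 hr, and the share of all probe sets at that threshold was not counted. URE, the urease that frees ammonium from urea, was 127.1 and 99.4 at 3 hr, against 175.7 and 156.9 in the control (log2 -0.50 ± 0.17 SE, adjusted p = 0.111). AT4G24830, which the tables used here do not name, was 2164.8 and 2014.8 at 3 hr, against 1618.6 and 1695.1 in the control (log2 0.33 ± 0.11 SE, adjusted p = 0.103). Over the 4 times together the F test called AT4G24830 (adjusted p = 0.0321) and neither of the other 2 genes.

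Between successive times the same list genes had the most calls from 3 to 6 hr, as did all probe sets. Between 6 and 3 hr 3 of the 27 were higher and 3 lower at 6 hr, against 5.16% and 3.99% of all probe sets. Between 12 and 6 hr 1 was higher and 2 lower at 12 hr, against 0.712% and 1.68%. Between 24 and 12 hr limma called 0, against 0.0220% of all probe sets higher and 0.0923% lower. By limma's unadjusted p, 5 of the 27 were under 0.05, but the share of all probe sets at that threshold was not counted. The 6 calls between 6 and 3 hr became 3 without 3 hr replicate 1, 3 hr replicate 2 or 6 hr replicate 2 and 2 without 6 hr replicate 1, and the 3 between 12 and 6 hr became 1 without either 6 hr or either 12 hr array. The pair, given above, had its own steps upward in the interval from 12 to 24 hr, by 0.42 for NRT2.5 and 0.66 for ASPGB1.

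The genes most like NRT2.5 were picked by Pearson correlation of log2 signals over the same 10 arrays. They were AT1G80850 (0.983), AT2G14910 (0.973), AT5G64850 (0.970), AT1G68600 (0.969) and AT4G24780 (0.968). A low point at 3 hr and a stepwise return shared with NRT2.5 follow from that choice. The differences of these genes were smaller, and nothing is read from this, since NRT2.5 was chosen for its low level. Their log2 differences at 3 hr ran from -0.48 for AT2G14910 to -1.03 for AT5G64850, against -1.69 for NRT2.5. AT5G64850, for example, had means of 457 ± 11.1 at 3 hr and 878 ± 1.34 at 24 hr, against 949 ± 23.2 in the control (SD, n = 2 each).

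The 3 genes most opposite to NRT2.5, picked in the same way, stood far above the control at 3 hr. AT3G28220 (r = -0.980) had a mean of 2448 ± 217 at 3 hr and 97.5 ± 30.9 at 24 hr, against 89.5 ± 13.1 in the control. AT1G66100 (r = -0.971) was 1365 ± 151 at 3 hr, against 98.9 ± 21.2 in the control, and AT1G10585 (r = -0.982) was 405 ± 3.78, against 77.5 ± 7.40 in the control (SD, n = 2 each).

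For ASPGB1 the most alike were EXPA4, an expansin that loosens the cell wall (0.982), AAH, the allantoate amidohydrolase that frees ammonium from purine breakdown products (0.963), AT5G07020 (0.960), AT1G51110 (0.960) and SGP2 (0.956). AAH was on none of the lists. It averaged 547 ± 31.5 at 3 hr, 506 ± 27.9 at 6 hr, 582 ± 0.443 after 12 hr and 753 ± 33.4 at 24 hr, against 723 ± 7.33 in the control (SD, n = 2 each). Its log2 difference at 6 hr was -0.50, against -1.40 for ASPGB1. Nothing is read from that gap, since ASPGB1 was chosen for its low level.

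EXPA4 averaged 1016 ± 53.9 at 6 hr, against 1567 ± 24.1 in the control (SD, n = 2 each), with a log2 difference of -0.62. The most opposite genes were AT5G38020 (-0.952), AT4G20830 (-0.948) and AT3G10810 (-0.944). The 10 arrays of such a correlation are 5 pairs of replicates, and the lists of alike genes share arrays, time points and the common scaling.

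**Figure D4:**
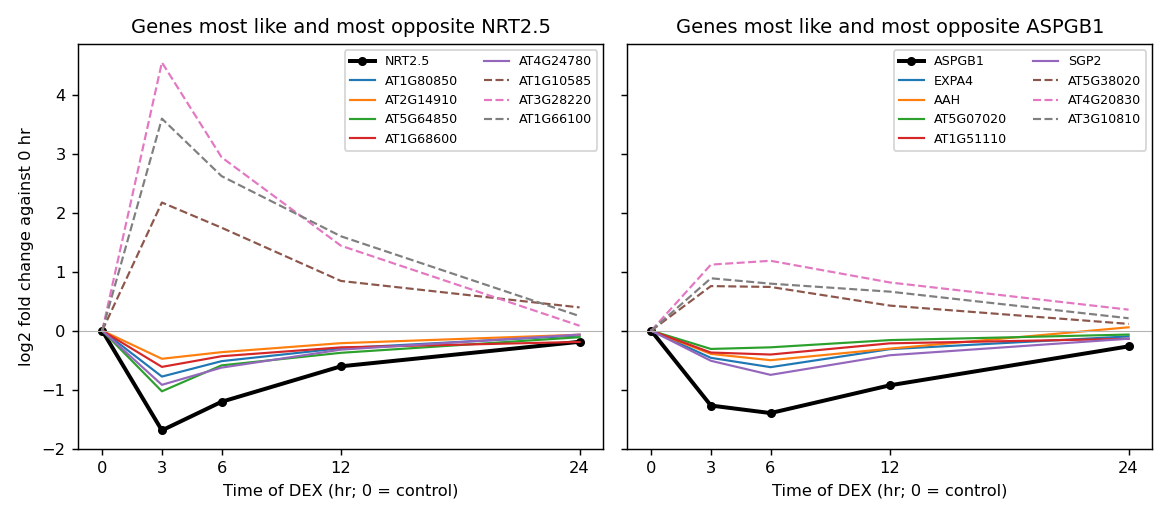
Log2 difference from the control (vertical axis) against hours of DEX for NRT2.5 (left, black) and ASPGB1 (right, black), with the 5 most alike genes (solid) and the 3 most opposite genes (dashed) of each. The alike genes of NRT2.5 have their low point at 3 hr. On the right, EXPA4, AAH, AT1G51110 and SGP2 are lowest at 6 hr and AT5G07020 at 3 hr. These low points were not tested, and AT1G51110, at -0.37 at 3 hr and -0.40 at 6 hr, differs by less than its SE of 0.07. The opposite genes on the left reach 4.55 (AT3G28220), beyond the 1.19 of AT4G20830 on the right.

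Few of the genes beside the pair on the chromosome were measured. Of the 5 protein-coding genes on each side, 3 of 10 were measured around NRT2.5 and none was called against the control at any time, with adjusted p at 0.304 or above. Around ASPGB1 4 of 10 were measured and 1 was called, AT3G16120, named after its values were seen. It lay 3 genes away and was 43.2 and 12.6 at 3 hr, against 75.2 and 86.6 in the control (log2 -1.23 ± 0.29 SE, adjusted p = 0.0256), and it was not called at later times. Of all probe sets, 4.31% were called lower at 3 hr. All 4 measured neighbours of ASPGB1 had negative log2 differences at 3 and 6 hr. The median over all probe sets was also negative, at -0.03 and -0.05, and the share of probe sets with a negative difference was not counted. Of the 4, AT3G16160 was dim, with control signals of 7.77 and 28.0, and AT3G16190 was at only -0.18 and -0.08. AT3G16175, 3 genes away on the other side and also named after its values were seen, was 68.9 and 69.5 at 3 hr, against 113.4 and 106.9 in the control (log2 -0.57 ± 0.18 SE, adjusted p = 0.0775), and lay below both control arrays at every DEX time without passing the test.

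Some marker values moved with the pair. LHCB4.3 fell by 0.93 at 3 hr, 0.77 at 6 hr and 0.42 at 12 hr on the log2 scale (adjusted p = 8.3e-05, 0.000217 and 0.0361), and EXPA18, a dim root hair gene, fell by 1.52 at 6 hr (adjusted p = 0.00599). RCA, PYK10 and EXPA7 were called at no time. The summed signal of the 2 shoot markers ran from 25740 to 26515 at 3 hr and from 21171 to 21186 at 6 hr, against 26786 to 29177 in the control, and that of the 3 root markers from 8918 to 10481 at 3 hr and 9179 to 10614 at 6 hr, against 9195 to 9780 in the control. RCA, with a mean of 24161 at 3 hr, makes up most of the shoot sum. PYK10, with a mean of 9632 at 3 hr, makes up most of the root sum. The sums thus say little of LHCB4.3 and EXPA18. The part of these marker shifts in the levels of NRT2.5 and ASPGB1 was not tested.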

How the data were processed

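Whole shoots of 5 groups, with 2 ATH1 arrays each, were measured. The deposited values are MAS5 signal intensity on a linear scale, which the authors computed; the submitters' processing notes list MAS5 and Affymetrix Expression Console 1.1. Background correction and scaling target are not given in the sources used here. Total RNA of 300 ng was labelled per sample, per the labels' protocols. Precision is limited by having 2 arrays per group.

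Of 22810 probe sets, 64 controls were set aside. Of the 22746 tested, 13513 had 1 gene in the array's gene table, 503 several and 8730 none. Symbols and gene order came from RefSeq (TAIR10.1), and no coordinates were used. Log2(signal + 16) was modelled in R 4.3.3 by limma 3.58.1, with 1 mean per group over all 10 arrays, a variance trend, 5 residual and 5.86 prior degrees of freedom, two-sided tests and p-values adjusted by Benjamini-Hochberg per comparison across the whole array. The procedure was tested on simulated data. An exact permutation test of 2 against 2 arrays cannot go below p = 0.333 and was not used.

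The pair and the lists were chosen with earlier results of these data known. Named by rule were the pair, the measured asparagine and aspartate genes, up to 5 called genes of each other list (up to 2 if none was called) by size of change, and, for each of the pair, the 5 most and 3 least correlated genes brighter on average than the 30th percentile. Of several probe sets for a gene, the brightest was used. Alternatives were offsets of 1 and 64, quantile and common-median scaling, a filter at the 30th percentile, no variance trend, a replicate block, and each array left out. Promoter motifs and protein sequences were not analysed here. Replicate numbers shared by groups did not pair the arrays: over 10 pairs of groups the correlations of deviations ran from -0.036 to 0.088.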

Additional observations from a re-analysis of the deposited data

Results flagged for a closer look

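In 9 list genes the difference from the control changed between 2 successive DEX times, by limma's test of the later against the earlier time. The times share the spread of all 10 arrays, and the pair itself was not tested.

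From 3 to 6 hr, 3 genes came down. On the log2 scale NPF6.4 moved by -0.89, PYRB by -0.37 and AT4G24830 by -0.46. In the same interval 3 genes went up, GTR2 by 0.43, AT1G68670 by 0.35 and AT1G25550 by 0.85. From 6 to 12 hr NPF3.1 moved by -0.34 and AT3G60320 by -0.59, while AT1G06830 moved by 0.77. Of these, NPF6.4, AT1G25550 and AT1G06830 held in all 10 fits that left out 1 array. The other 6 were each lost without both or some of the arrays at the 2 times compared, and AT1G68670 also without a control or a 12 hr array. All 6 were lost without the variance trend. AT1G68670 was lost further with quantile scaling (adjusted p = 0.0546), with common-median scaling (adjusted p = 0.0778) and with the replicate block (adjusted p = 0.0517).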

How the results depend on the processing

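The log2 differences given for the pair, for called list genes and for ASPGA1 kept their sign under the alternatives run. Those of URE and AT4G24830 at 3 hr against the control, which were not called, were not compared in this way. Medians near 0 did not all do so: that of the 27 list genes between 6 and 3 hr was -0.04, and 0.04 with quantile scaling, and that of all probe sets at 3 hr was -0.03, and 0.01 with a common median, where the higher and lower calls also changed from 890 and 980 to 1181 and 690. For the pair, the offset and single arrays mattered most. With an offset of 1 the log2 difference of NRT2.5 at 3 hr was -1.97. With an offset of 64 it was -1.19 at 3 hr and -0.89 at 6 hr, and for ASPGB1 it was -1.10 at 3 hr and -1.21 at 6 hr, which follows from adding a larger constant to low signals. Leaving out 1 array moved ASPGB1 at 6 hr between -1.60 and -1.19, NRT2.5 at 12 hr between -0.75 and -0.46 and NRT2.5 at 24 hr between -0.29 and -0.09. Counts of called list genes depended on the fit. Without a variance trend they were 4 at 3 hr, 1 at 12 hr, 0 at 24 hr, 2 between 6 and 3 hr, 1 between 12 and 6 hr and 6 by the F test, and the cause was not tested. With 1 array left out they ran from 3 to 9 at 3 hr, 5 to 9 at 6 hr, 1 to 3 at 12 hr, 0 to 1 at 24 hr, 2 to 7 between 6 and 3 hr and 1 to 4 between 12 and 6 hr, where a lone array was assumed to vary like the other groups. Of 20 calls against 0 hr, 9 were lost in no such fit, 3 in 1 or 2, and 8 in 3 or more. The replicate block, which has no basis in a shared batch, gave 8 calls at 3 hr, 8 at 6 hr and 2 at 12 hr, against 3 without it, the lost one being AT1G68670.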
